A study of Mus musculus with 3 samples.

Results

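The genes described here encode voltage-gated potassium, sodium and calcium channels of the mouse. They are a list of 35 genes, 18 for potassium, 6 for sodium and 11 for calcium channels, among 21883 annotated protein-coding genes. Members were listed by gene name, and the list was made with earlier results of these data known. Of the 35, 30 encode the subunit that forms the pore (18 potassium, 5 sodium and 7 calcium) and 5 encode auxiliary subunits (Scn2b, Cacna2d1, Cacna2d3, Cacnb2 and Cacnb4). Open chromatin at these genes was read from 3 ATAC-seq peak tables, 1 library per group. ATAC-seq tags accessible DNA with a transposase, and a peak is a place where tagged fragments pile up above the local background.

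The cells were oligodendrocyte progenitors, which give rise to the myelin-forming cells of the brain, taken from the cortices of C57BL/6 pups of postnatal day 4 to 7 by panning on anti-GalC plates and next on anti-O4 plates. The first group was wild type cells in growth medium with PDGF-AA, CNTF, bFGF and NT3, called control progenitors here. Its title carries the letters DO, which were read as day 0. The second group was wild type cells after 1 day of triiodothyronine (T3, 60 nM), with PDGF-AA, bFGF and NT3 taken away, called control cells at day 1. The third group was Seh1cKO cells, with a conditional knockout of the nuclear pore component Seh1, after the same 1 day of T3. Each library was made from 50000 cells. Neither the Cre line behind the knockout nor the number of animals per library is given in the labels. The libraries held 23403600, 18260883 and 10845533 fragments and 108788, 118441 and 46113 peaks, in the order of the groups above, and this order is kept below. The lowest pileup called was 9, 8 and 6 fragments, so that a place without a peak may be open below that level. With 1 library per group there is no replicate check and no test, and every interval covers counting error alone.

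Of marker genes of the oligodendrocyte lineage, 9, 9 and 8 of 10 had a peak at a gene end. The same held for 10, 11 and 7 of 14 neuron markers and 6, 6 and 6 of 7 astrocyte markers. For microglia and macrophages it held for 4, 3 and 2 of 8, and for endothelial and mural cells for 3, 4 and 2 of 8 (Cspg4 is in the lineage and the mural list). Many channel genes are also active in neurons. The part of other cell types in the values below was not tested.

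Voltage-gated channels open when the membrane depolarizes. Potassium channels then carry current out of the cell and bring the membrane back towards rest, sodium channels carry the fast inward current of the action potential, and calcium channels let in calcium that acts as a signal inside the cell. Oligodendrocyte progenitors are known to carry all of these currents and to receive synapses from neurons, and sodium currents and delayed rectifier potassium currents are known to decline as the cells mature. An open promoter is not a measure of expression, and no RNA was analysed here.

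Promoter sequences show how far the members differ in the bases in front of the gene. The table of promoters from RefSeq (GRCm38.p6, whose main chromosomes have the mm10 coordinates) held 28 of the 35 members, with 40 annotated starts. Kcna1, Kcnb2, Kcnq3, Scn3a, Cacna1a, Cacna1g and Cacna1h were not among them. Printed here are 7 stretches that lie before the annotated gene, read from 5′ to 3′ on the strand of the gene, with CG dinucleotides in capitals. Kcna3 (chr3:107035912-107036161, plus strand) and Kcnd3 (chr3:105451640-105451889, plus) stand for potassium channel genes rich in CG. Scn1a (chr2:66440838-66441087, minus), Scn2a (chr2:65620519-65620763, plus) and Scn2b (chr9:45117626-45117875, plus) are sodium channel genes with few CG, whose starts had weak peaks or peaks in progenitors alone. Cacna1b (chr2:24763201-24763402, minus) is the calcium channel gene whose start differed most between the day 1 libraries, and Cacna1d (chr14:30491157-30491406, minus) is one whose outermost start had no peak.
Kcna3: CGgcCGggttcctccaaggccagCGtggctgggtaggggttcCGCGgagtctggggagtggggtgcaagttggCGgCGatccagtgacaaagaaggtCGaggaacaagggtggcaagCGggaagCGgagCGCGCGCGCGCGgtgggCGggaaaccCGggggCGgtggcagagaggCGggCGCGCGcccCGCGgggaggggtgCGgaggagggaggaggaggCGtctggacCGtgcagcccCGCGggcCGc
Kcnd3: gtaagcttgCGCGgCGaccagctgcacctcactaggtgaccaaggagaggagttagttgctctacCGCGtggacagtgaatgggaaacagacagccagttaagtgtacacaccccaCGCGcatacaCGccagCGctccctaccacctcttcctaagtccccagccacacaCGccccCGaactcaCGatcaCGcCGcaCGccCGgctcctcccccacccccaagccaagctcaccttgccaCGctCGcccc
Scn1a: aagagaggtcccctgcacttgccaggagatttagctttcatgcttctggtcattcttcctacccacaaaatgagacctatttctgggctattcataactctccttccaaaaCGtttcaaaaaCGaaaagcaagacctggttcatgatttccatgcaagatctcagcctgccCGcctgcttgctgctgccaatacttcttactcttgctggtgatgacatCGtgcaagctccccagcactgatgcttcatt
Scn2a: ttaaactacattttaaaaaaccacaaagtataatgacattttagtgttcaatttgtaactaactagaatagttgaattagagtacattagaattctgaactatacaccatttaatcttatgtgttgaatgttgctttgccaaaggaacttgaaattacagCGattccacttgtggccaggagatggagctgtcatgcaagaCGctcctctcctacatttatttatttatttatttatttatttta
Scn2b: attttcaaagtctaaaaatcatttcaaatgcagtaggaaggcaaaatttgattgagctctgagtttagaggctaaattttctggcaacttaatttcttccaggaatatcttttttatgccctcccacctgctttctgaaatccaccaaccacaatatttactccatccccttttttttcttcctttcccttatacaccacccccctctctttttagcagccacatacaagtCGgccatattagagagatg
Cacna1b: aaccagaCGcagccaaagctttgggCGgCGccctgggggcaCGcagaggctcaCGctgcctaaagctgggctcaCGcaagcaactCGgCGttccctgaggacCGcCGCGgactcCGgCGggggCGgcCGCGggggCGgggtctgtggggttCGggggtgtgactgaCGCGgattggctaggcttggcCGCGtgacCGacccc
Cacna1d: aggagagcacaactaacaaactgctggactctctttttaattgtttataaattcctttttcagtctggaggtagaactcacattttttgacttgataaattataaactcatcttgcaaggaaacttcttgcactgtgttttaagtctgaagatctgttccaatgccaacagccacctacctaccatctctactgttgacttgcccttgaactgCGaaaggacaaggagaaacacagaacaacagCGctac

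In these stretches CG occurred 31 times at Kcna3, 18 times at Kcnd3 and 23 times at Cacna1b. It occurred 4 times at Scn1a, 2 times at Scn2a, 1 time at Scn2b and 2 times at Cacna1d. Over the whole windows of 300 bases, from 250 before to 50 after the start, the median number of CG was 20 for potassium, 9 for sodium and 31 for calcium channel starts, against 13 over 21262 starts of all genes in the table. Of member starts with more than 15 CG, 21 of 21 had a peak within 1000 bp in control progenitors and 21 of 21 in control cells at day 1, where all genes gave 93.9% and 94.6%. In Seh1cKO cells the count was 19 of 21, against 91.3% of all such starts. The exceptions were Kcnd3 and Kcnh2. The Kcnh2 start (chr5:24329591) lies inside the gene, whose end at chr5:24351684 had a peak of 34 fragments in Seh1cKO cells. Of the 12 member starts with 0 to 5 CG, 10, 8 and 7 had such a peak, against 15.9%, 16.6% and 10.0% of all starts in that class. Of those 12 starts, 3 belong to Kcnc2 and share 1 peak, and the CG-poor start of Kcnq5 shares its peak with a start of 20 CG.

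The letters GGGCGG, searched on both strands, were in 11 of 19 potassium, 0 of 7 sodium and 7 of 14 calcium channel starts, against 46.2% of all starts. CAGCTG was in 7, 0 and 7 of them, which is 35% of the 40 against 15.6% of all starts. Counted by gene it was in 10 of 28 members, 35.7%, against 17.4% of all genes. AGGTCA was in 3 of the 40 member starts (all starts 14.7%), ACAAAG in 9 (16.8%) and TATAAA in 2 (12.6%). All 4 starts of Kcnc2 hold CAGCTG, and the windows of 3 of them overlap. The letters GGGCGG hold a CG that the CG count also takes in. A match describes the letters and is not a binding site.

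**Figure D1:**
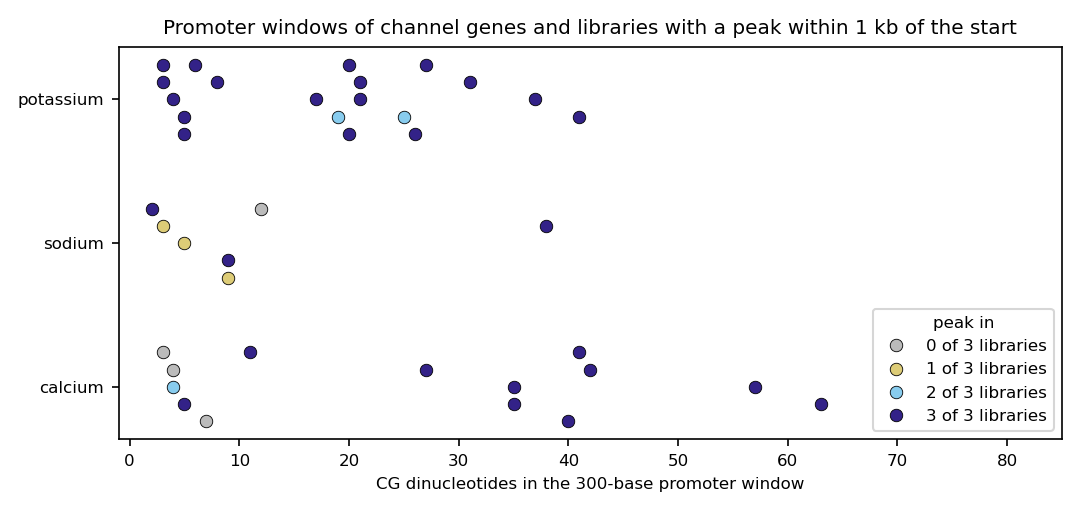
Each point is 1 annotated start of a member, placed by the number of CG dinucleotides in its 300-base window (x axis) and by ion (y axis, points spread for sight), and coloured by how many of the 3 libraries had a peak within 1000 bp. Sodium channel starts sit at low CG but for the Scn8a start at 38, and the starts without a peak in every library have 12 CG or fewer, but for Kcnd3 at 25 and a start inside the Kcnh2 gene at 19.

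The first question was which members had a peak within 1000 bp of either annotated gene end, called a gene-end peak below. There were 32 of 35 members with one in control progenitors, 28 at control day 1 and 28 in Seh1cKO cells, where all protein-coding genes gave 62.4%, 63.2% and 56.2%. For genes over 200 kb, the length class of 16 members, all genes gave 80.5%, 81.2% and 73.9%, and the members gave 14, 13 and 12 of 16. At 50 to 200 kb the members gave 8, 5 and 6 of 9, against 76.5%, 77.4% and 70.4%. Under 50 kb they gave 10, 10 and 10 of 10, against 58.1%, 58.9% and 51.8%. In all 3 libraries 27 members had such a peak (54.1% of all genes), and 2, Cacna1c and Cacna1d, had none in any (31.5%). Potassium channel genes stood highest, with 18, 18 and 17 of 18. Calcium channel genes gave 9, 7 and 7 of 11, and sodium channel genes 5, 3 and 4 of 6.

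The members with a gene-end peak in control progenitors and none in control cells at day 1 were Scn1a, Scn2a, Cacna1e and Cacna1h, 4 of 35 against 4.72% of all genes. None of them had one in Seh1cKO cells either, a pattern of progenitors alone that 4.15% of all genes showed. No member had the reverse pattern, against 5.52% of all genes. These 4 peaks were low. At Scn1a, a pore gene of the sodium current in neurons, the progenitor peak (chr2:66440083-66440247) had a pileup of 12 fragments, or 0.513 fragments per 1000000 of the library (FPM), and a −log10 q of 3.26. At Scn2a, the pore gene of immature axons, it had 16 fragments (0.684 FPM, −log10 q 6.19) and covered the start printed above. At Cacna1e, which carries R-type calcium current, it had 18 fragments (0.769 FPM, −log10 q 7.83). At Cacna1h, a T-type channel opened by small depolarizations, it had 14 fragments (0.598 FPM, −log10 q 3.22), and it also lay at an end of the neighbouring gene Tpsg1. The lowest height called was 0.438 FPM at control day 1 and 0.553 in the Seh1cKO library, so a peak of the same height at Scn1a would not have been called in Seh1cKO cells.

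A further pair of members differed between the day 1 libraries. Kcnh1, an ether-a-go-go potassium channel, had a gene-end peak in both control libraries (16 and 19 fragments) and none in Seh1cKO cells. Of all genes, 8.17% had one at control day 1 and not in Seh1cKO cells, whatever the progenitors had. Scn9a, a sodium channel pore known from sensory neurons, had one in Seh1cKO cells alone (7 fragments, 0.645 FPM, −log10 q 2.06), a pattern found in 1.12% of all genes for Seh1cKO against control day 1. With 7 fragments it lay 1 above the lowest pileup called in that library.

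Several of the genes without a gene-end peak had a peak at or near an internal start. Where any annotated start was taken in place of the ends, 27, 26 and 25 of the 28 members in the promoter table had a peak within 1000 bp, against 62.4%, 63.0% and 58.4% of genes in the table. Cacna1c, the pore of an L-type calcium channel, had a peak beside its start with 57 CG in every library, with a pileup of 49, 48 and 24 fragments. Scn2a had one over its second start (chr2:65668171-65668909 at day 1), with 58, 42 and 30 fragments, or 2.48, 2.30 and 2.77 FPM. This site was the strongest of the Scn2a locus in every library and differed little between them, while the first start had a peak in progenitors alone. At Cacna1d, also L-type, each control library had a peak of 16 fragments within 1000 bp of the internal start with 63 CG. In Seh1cKO cells a separate peak of 7 fragments lay on the other side of that start. No library had a peak in the 300-base window of the start itself. At Kcnh1 the annotated start inside the gene had 47, 39 and 16 fragments. Cacna1e had a peak within 1000 bp of its annotated start, which lies inside the gene, in every library, with 32, 19 and 11 fragments.

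Gene-end peaks of the members were lower than those of other genes. The median height over members with a peak was 1.30, 1.86 and 1.75 FPM, against 1.88, 2.52 and 2.86 for all genes with a peak. By ion the medians were 1.69, 1.94 and 1.75 for potassium, 0.684, 0.931 and 0.784 for sodium and 1.32, 1.92 and 1.84 for calcium channel genes. The sodium channel genes were thus lowest in every library, from 5, 3 and 4 genes.

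Among potassium channel genes the Kv1 members open at low voltage and set the threshold of firing. Kcna3, with the CG-rich promoter printed above, had 55, 60 and 32 fragments in its gene-end peak, or 2.35, 3.29 and 2.95 FPM. Kcna6 had 2.01, 2.85 and 2.31 FPM, and Kcna4 2.22, 2.08 and 2.03. Kcna1 was at 1.58, 1.53 and 1.29. Kcna5 was the lowest of the family in progenitors, with 10, 14 and 13 fragments (0.427, 0.767 and 1.20 FPM). Kcna2 had its gene-end peak at the far end of the gene, with 21, 33 and 19 fragments (0.897, 1.81 and 1.75 FPM), and a second site at its annotated start with 44, 49 and 26 fragments. The day 1 height at the far end was 2.01 times that of progenitors (1.13 to 3.66). The day 1 peak there was wider and also overlapped another progenitor peak, of 18 fragments. Its summit lay in that one, so this ratio does not compare heights at the same summit.

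Kcnb2 encodes a Kv2 channel of the slow delayed rectifier kind, and its gene end stood out. The peak at the lower-coordinate end (chr1:15286364-15287360 at day 1) had 53 fragments in control progenitors, 93 at control day 1 and 25 in Seh1cKO cells. In FPM this was 2.26, 5.09 and 2.31. Control cells at day 1 were the highest of the 3. Progenitors and Seh1cKO cells were at nearly the same height in FPM but not relative to the median pileup of each list, where the 3 heights were 3.79, 7.15 and 1.92. The ratio of day 1 to progenitors was 2.25 (1.59 to 3.21), and 8.90% of all genes with the peak at 1 site in both libraries reached 2-fold. The ratio of Seh1cKO to control day 1 was 0.453 (0.279 to 0.710), and 1.59% of all genes were at least 2-fold lower. On the fold enrichment that the authors gave, the log2 ratio of day 1 to progenitors was 0.50 in place of 1.17. Kcnb2 was the strongest gene-end peak of all members at day 1 by −log10 q (76.0), followed among potassium channels by Kcnq3 (47.9). Picking a gene end as the strongest at day 1 favours a high day 1 value, and both ratios are descriptions.

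The Kv3 genes, which serve fast repolarization, were of middle or low height. Kcnc1 had 2.01, 2.41 and 1.57 FPM, Kcnc2 0.983, 1.53 and 1.20, and Kcnc4 0.812, 1.10 and 0.738. Of the Kv4 genes of the transient A-type current, Kcnd2 had 1.45, 1.70 and 1.48 FPM at its start, where the strongest peaks of the 2 control libraries lay apart. Kcnd3 was highest at its far end, with 30, 44 and 14 fragments (1.28, 2.41 and 1.29 FPM). This is the same order as at Kcnb2, and the Seh1cKO to day 1 ratio was 0.536 (0.271 to 0.996). At the Kcnd3 start printed above, control progenitors had a peak on either side of the stretch (29 and 24 fragments). Control cells at day 1 had the same pair (26 and 25) and a low peak within the stretch (16), and no peak of Seh1cKO cells lay within 1000 bp.

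The EAG genes differed among themselves. Kcnh2 had 2.31, 2.08 and 3.13 FPM, Kcnh8 1.92, 1.81 and 1.94, and Kcnh7 0.812, 0.876 and 1.20. Of the Kv7 genes of the slow M-type current, Kcnq5 had 2.73, 2.63 and 3.23 FPM. Kcnq3 had 47, 69 and 37 fragments at its higher-coordinate end (2.01, 3.78 and 3.41 FPM) and a second site near the other end with 42, 18 and 11. The day 1 peak there (chr15:65987398-65987911) overlaps the others and lies just past 1000 bp from the gene end.

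Of the sodium channel genes, Scn3a had 23, 14 and 10 fragments (0.983, 0.767 and 0.922 FPM) and Scn8a 27, 20 and 18 (1.15, 1.10 and 1.66). Scn2b, an auxiliary beta subunit, had 9, 17 and 7 (0.385, 0.931 and 0.645). All 3 genes were called in every library, and Scn2b in progenitors was at the lowest pileup of the list. The Scn2b peaks of progenitors and of Seh1cKO cells did not overlap each other, and the wider day 1 peak overlapped both. The 2 strongest at day 1 were Scn8a (−log10 q 8.94) and Scn2b (8.35), both far under the strongest potassium channel peaks.

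Of the calcium channel genes, those of presynaptic P/Q-type and N-type channels were highest in FPM in Seh1cKO cells. Cacna1a had 31, 35 and 32 fragments, or 1.32, 1.92 and 2.95 FPM. Cacna1b had 51, 33 and 40 fragments, or 2.18, 1.81 and 3.69 FPM, over the promoter printed above. Seh1cKO cells were above both controls at Cacna1b, at 2.04 times control day 1 (1.25 to 3.34), and 1.37% of all genes reached 2-fold. Relative to the median pileup of each list, this log2 ratio was 0.28 in place of 1.03. On that scale Cacna1a was at 2.21, 2.69 and 2.46 and Cacna1b at 3.64, 2.54 and 3.08, so Seh1cKO cells were highest at neither. The T-type gene Cacna1g had 1.15, 1.48 and 2.03 FPM. The auxiliary genes, whose products bring the pore to the membrane and tune it, were highest in FPM in control cells at day 1: Cacna2d1 at 1.11, 1.92 and 1.48, Cacna2d3 at 1.58, 2.19 and 1.84, Cacnb2 at 1.67, 2.30 and 1.84 and Cacnb4 at 1.75, 2.03 and 1.75. Their ratios of day 1 to progenitors were 1.73, 1.39, 1.38 and 1.16. All genes had a median ratio of 1.39, and 87.2% were higher at day 1. Relative to the median pileup of each list, Cacnb4 was at 2.93, 2.85 and 1.46, so day 1 was not highest there. Cacnb2 and Cacnb4 were the strongest calcium channel gene ends at day 1 (−log10 q 24.9 and 23.6).

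Where both libraries had the strongest gene-end peak at 1 site, the members' median log2 ratio of day 1 to progenitors was 0.45 over 26 genes, and that of all genes 0.48 over 11623. For Seh1cKO to control day 1 it was −0.16 over 27 genes, against 0.00 over 11281. The median of the first ratio at members was thus near that of all genes. Its log2 value was positive at 18 of 26 members, 69.2%, against 87.2% of all genes. For the second ratio it was positive at 10 of 27, 37.0% against 50.3%. At 2-fold or more, Kcna2, Kcnb2 and Scn2b were higher at day 1 than in progenitors. They are 11.5% of 26 members, against 8.90% of all genes. At Kcna2 and Scn2b the day 1 peak was wider than the progenitor peak and reached further sites, as given above. In Seh1cKO cells Cacna1b was at least 2-fold higher and Kcnb2 at least 2-fold lower than at control day 1. Each is 3.7% of 27 members, against 1.37% and 1.59% of all genes. No member was 2-fold lower at day 1 than in progenitors, against 0.181% of all genes.

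**Figure D2:**
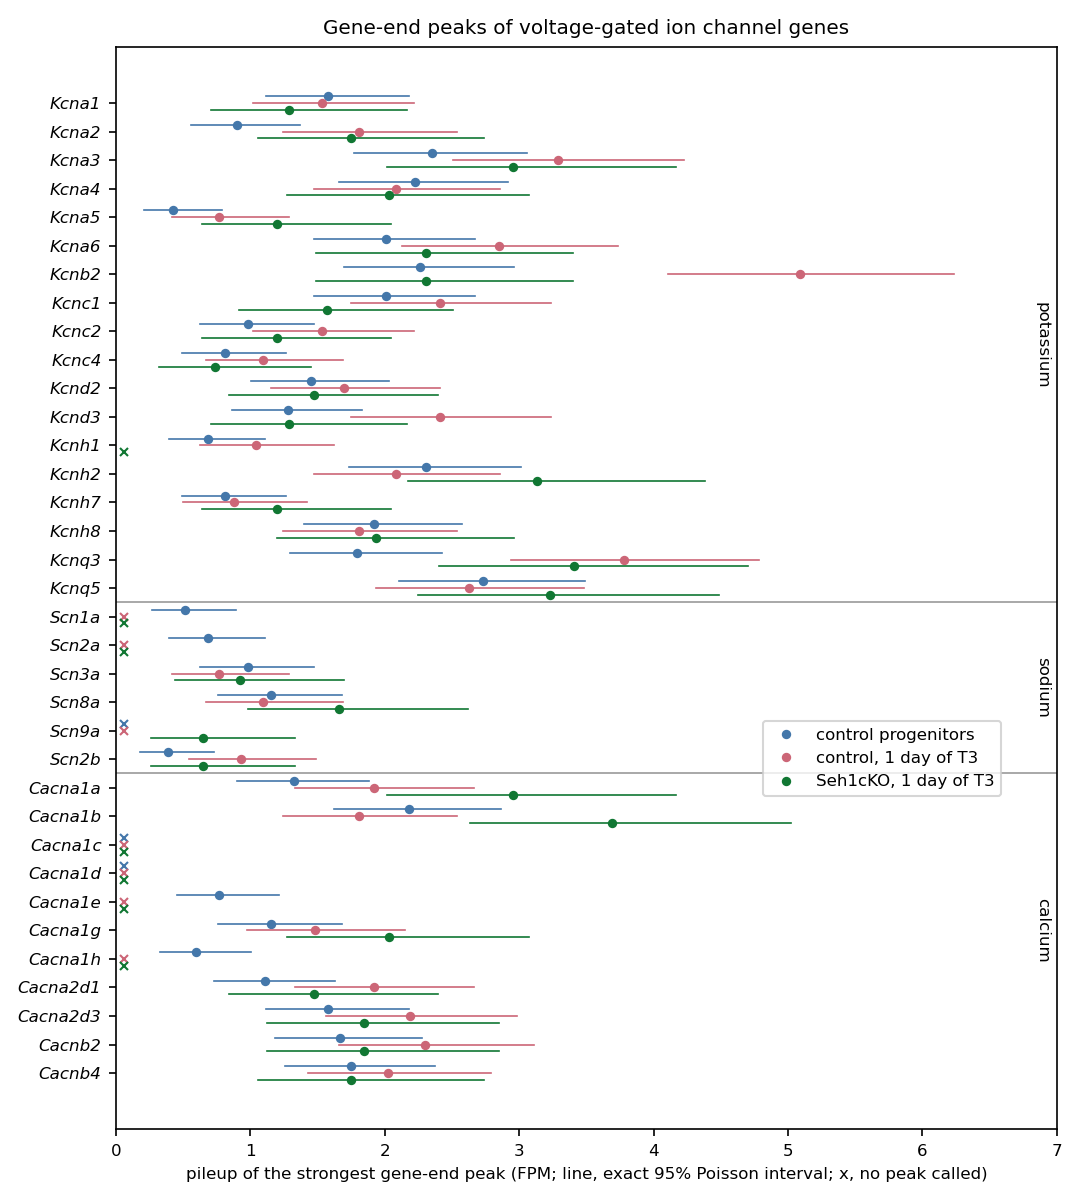
Height of the strongest gene-end peak of each member in FPM (x axis), with its exact 95% Poisson interval, in the 3 libraries, and a cross where no peak was called; the progenitor point of Kcnq3 is at the other end of the gene from its day 1 points. Kcnb2 in control cells at day 1 stands apart at 5.09, and the sodium channel genes lie at or under 1.66.

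The next question was how many peaks lay in the whole loci, from 10000 bp before to 10000 bp after each gene. No single peak was counted for 2 different member loci. The loci held 450, 503 and 201 peaks, or 4.93, 5.51 and 2.20 per 100 kb. Potassium channel loci held 194, 225 and 88 (4.87, 5.64 and 2.21 per 100 kb), calcium channel loci 217, 242 and 98 (5.10, 5.69 and 2.30) and sodium channel loci 39, 36 and 15 (4.38, 4.04 and 1.68). Of the members, 19 had more peaks in control cells at day 1 than in progenitors and 13 fewer, against 40.3% and 29.3% of all genes. Long genes more often show a difference: over 200 kb the members gave 12 and 3 of 16, against 62.4% and 30.3%. In Seh1cKO cells 31 of 35 had fewer than control cells at day 1 and 0 had more, against 69.3% and 3.03% of all genes. Here too the share follows gene length. Under 50 kb, at 50 to 200 kb and over 200 kb, 7 of 10, 8 of 9 and 16 of 16 members had fewer. All genes of those classes gave 62.3%, 91.6% and 99.5%.

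These counts move with the length of the 3 lists. Where each list was cut to its strongest 46113 peaks, the density over all members was 2.16, 2.1 and 2.20 per 100 kb. The differences over all members then had the opposite sign to those of the full lists, and so had those by ion except Seh1cKO against control day 1 at potassium channel loci. Depth and list length cannot be told apart from the groups here.

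Density was higher at short genes. Members under 50 kb had a median of 9.46, 11.0 and 6.27 peaks per 100 kb, against 6.39, 6.93 and 3.34 for all genes of that class. Members over 200 kb had 4.29, 5.43 and 1.94, against 4.5, 5.11 and 1.85. The densest loci were Kcnh2 in progenitors (19.2 per 100 kb), Cacna1h at control day 1 (15.8) and Kcna2 in the Seh1cKO library (11.3). The sparsest were Scn2a (1.80), Scn3a (1.53) and Scn1a (0), in the same order of libraries. Of the locus peaks, 6 in each library also lay at the end of another gene.

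**Figure D3:**
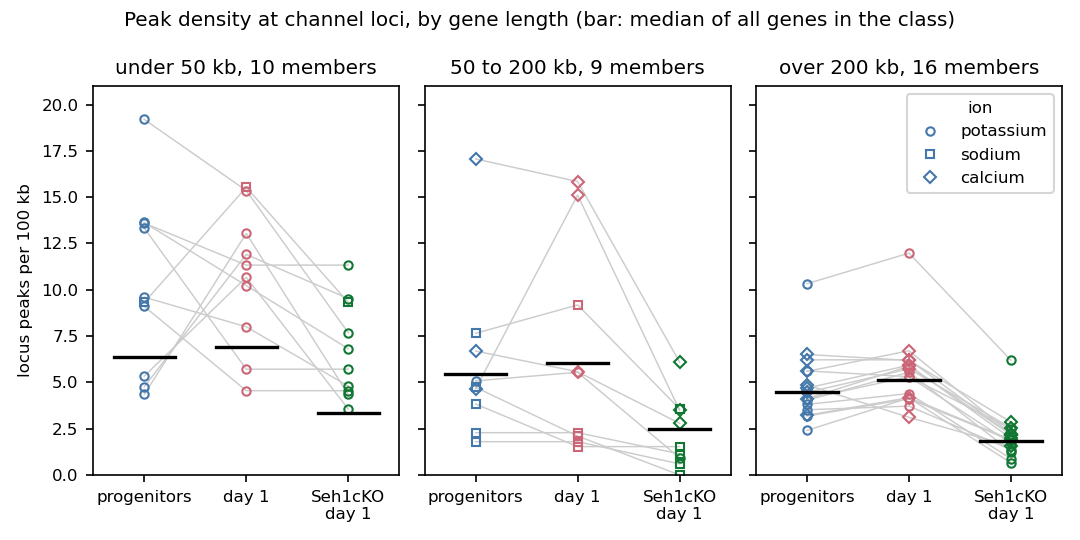
Peaks per 100 kb in each member locus (y axis) for the 3 libraries (x axis), in panels by gene length, with marks by ion and a black bar at the median of all genes of that length. No member lies higher in Seh1cKO cells than at control day 1, the bars for all genes are lower there too, and Cacna1g stands out among genes of 50 to 200 kb, at 4.65, 15.1 and 3.49.

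Gene by gene, the largest gains from progenitors to control cells at day 1 among potassium channel loci were at Kcnb2 (11, 19 and 3 peaks) and Kcnq5 (24, 31 and 10). The largest losses were at Kcna6 (7, 3 and 3) and Kcnh2 (10, 8 and 4). Among sodium channel loci, Scn8a (15, 18 and 7) and Scn2b (3, 5 and 3) held more at day 1, and Scn1a (9, 4 and 0) and Scn3a (5, 2 and 2) fewer. Among calcium channel loci, Cacna1g (4, 13 and 3), Cacna2d1 (19, 27 and 10) and Cacna2d3 (27, 35 and 16) held more, and Cacna1e (25, 16 and 8), Cacna1b (12, 10 and 5) and Cacna1c (41, 39 and 18) fewer. Between control day 1 and Seh1cKO cells the counts differed most at Kcnq5 and Kcnh8 (22 and 5 peaks), at Scn8a and Scn1a, and at Cacna1c and Cacna2d3. Scn1a was the only member locus without any peak in Seh1cKO cells.

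By family, the Kv1 loci held 23, 21 and 14 peaks, the EAG loci 57, 64 and 19 and the Kv4 loci 42, 51 and 25. The alpha2delta loci held 46, 62 and 26 and the T-type loci (Cav3) 18, 26 and 8, while the Cav2 loci held 57, 46 and 20. Cav2 and Kv1 were, with the sodium channel pores (36, 31 and 12), the families with fewer peaks at day 1 than in progenitors.

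Of the 503 peaks of control cells at day 1, 198 overlapped a progenitor peak, 39.4% (35.1 to 43.8), where all peaks of that list gave 39.7%. Of the same 503, 154 overlapped a Seh1cKO peak, 30.6% (26.6 to 34.8), where all peaks gave 31.3%. By ion the shares with progenitors were 39.1% for potassium, 38.9% for sodium and 39.7% for calcium. The shares with Seh1cKO cells were 29.8%, 25% and 32.2%. Each of these intervals took in the share of all peaks. Stronger peaks were shared more often: of 133 day 1 peaks at members with a −log10 q of 10 or more, 119 overlapped a progenitor peak and 108 a Seh1cKO peak (89.5% and 81.2%, all peaks 88.4% and 79.9%), and of 271 with less than 5 there were 33 and 18 (12.2% and 6.64%, all peaks 12% and 6.22%). In the other direction 160 of the 201 Seh1cKO peaks overlapped a control day 1 peak, 79.6% (73.4 to 84.9), where all peaks gave 81.4%. With control progenitors 139 of 201 overlapped, 69.2% (62.3 to 75.5), and this interval lay under the 78.7% of all peaks. The members held 102 Seh1cKO peaks with a −log10 q under 5, of which 48 overlapped a progenitor peak (47.1%, 37.1 to 57.2, all peaks 56.6%), and all 42 with 10 or more did. Of the Seh1cKO peaks at members 35 (17.4%) were in that library alone, against 12.5% of the list.

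**Figure D4:**
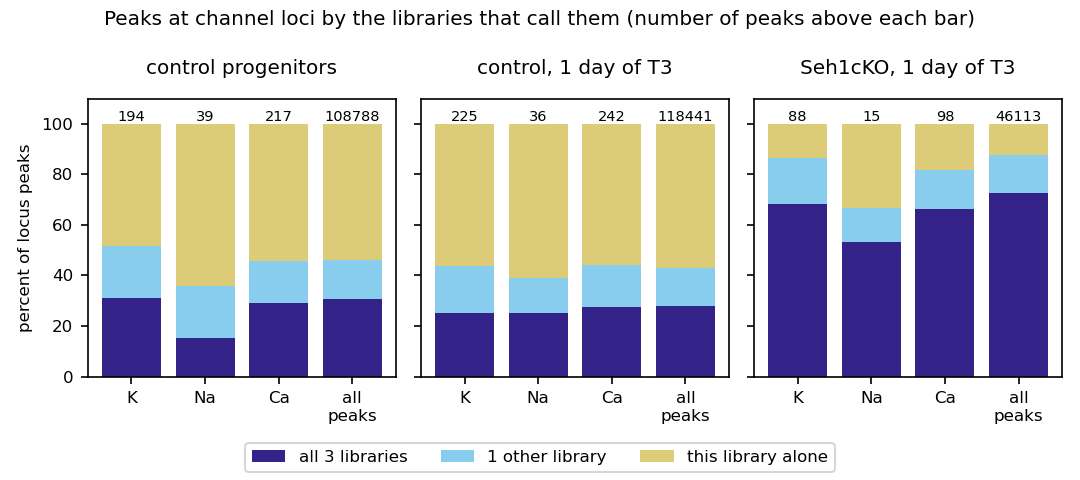
Percent of locus peaks (y axis) called in all 3 libraries, in 1 other library or in the named library alone, for each ion and for all peaks of that list (x axis), with the number of peaks above each bar. Potassium and calcium channel loci lie near all peaks in the 2 control panels, and sodium channel loci, with 15 to 39 peaks, have the largest share in 1 library alone in each panel.

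The strongest sites lay inside genes. The annotation used gives no exons, so exonic and intronic places could not be told apart. At potassium channel loci the strongest site by −log10 q that all 3 libraries called was in the Kcnh7 gene body (chr2:62807126-62807901 at day 1), with 112, 114 and 55 fragments, or 4.79, 6.24 and 5.07 FPM. All 3 libraries were high there. A Kcnq3 site (chr15:66239123-66240308) had 124, 138 and 53 fragments, or 5.30, 7.56 and 4.89 FPM, and a Kcnd3 site (chr3:105530603-105531185) 4.49, 4.65 and 4.52. The strongest day 1 site of Kcnq5 (chr1:21411307-21412114) had 3.59, 6.02 and 3.41.

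At calcium channel loci, as at some potassium channel loci, control cells at day 1 stood out at single sites. The strongest day 1 sites of potassium channel loci had ratios to progenitors from 0.970 at Kcna1 to 3.08 at Kcnc2, where both were called. Over sites called in all 3 libraries the median log2 ratio of day 1 to progenitors was 0.43 for potassium and 0.41 for calcium. In the Cacna2d1 gene body (chr5:16110684-16110997), which encodes the alpha2delta subunit that gabapentin binds, the pileup was 18 fragments in progenitors, 95 at control day 1 and 15 in the Seh1cKO library. In FPM this was 0.769, 5.20 and 1.38. The day 1 height was 6.76 times that of progenitors (4.06 to 11.9), and Seh1cKO cells had 0.266 of it (0.143 to 0.461). A Cacna1d site (chr14:30284375-30285126) had 15, 60 and 12 fragments, with ratios of 5.13 (2.88 to 9.72) and 0.337 (0.165 to 0.632). A Cacna1e site (chr1:154532284-154533168) had 38, 91 and 28, with ratios of 3.07 (2.08 to 4.61) and 0.518 (0.326 to 0.799). These sites were picked as the strongest of their locus at day 1, which favours a high day 1 value, and the ratios are descriptions.

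Other calcium channel sites had another order. The strongest progenitor site that all libraries called was beside Cacna1e (chr1:154385686-154386278), with 60, 28 and 12 fragments (2.56, 1.53 and 1.11 FPM). A site in the Cacna1e gene body (chr1:154500486-154500895 in Seh1cKO cells) was highest there, with 49, 27 and 31 fragments, or 2.09, 1.48 and 2.86 FPM. The strongest day 1 site of Cacna1c (chr6:119175107-119175832) had 60, 77 and 35 fragments and also lay at an end of the gene Dcp1b. At Cacna1h the strongest day 1 site was in the gene body (chr17:25433516-25434350), with 39, 49 and 38 fragments.

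At sodium channel loci the Scn8a gene body held a site (chr15:100909549-100910181) with 33, 56 and 9 fragments, or 1.41, 3.07 and 0.830 FPM. Scn8a encodes the main sodium channel pore of mature nodes. The day 1 height was 2.17 times that of progenitors (1.39 to 3.45), and Seh1cKO cells had 0.271 of it (0.118 to 0.551). This site too was picked as the strongest at day 1, and its ratios are descriptions. At Scn1a, 1 of the 4 day 1 peaks overlapped a progenitor peak (12 and 13 fragments), and none was called in all 3 libraries.

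Among peaks found in 1 library alone, the strongest at day 1 were in Kcnq3 (chr15:66272640-66273301, 43 fragments, −log10 q 30.9), Cacna1c (chr6:118677803-118678366, 32 fragments, 24.7) and Scn8a (16 fragments, 7.72). In progenitors they were beside Kcnc4 (28 fragments, −log10 q 11.6), in Scn8a (27 fragments, 12.2) and beside Cacna1e (19 fragments, 8.69). In Seh1cKO cells the strongest for each ion had 9 fragments beside Kcnc4 and, tied with it, in Kcnh1, 9 in Scn8a and 10 in Cacna1a.

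Over the 133 day 1 sites at members that all 3 libraries called, 18 were at least 2-fold higher in FPM than in progenitors, 13.5% against 14.0% of 33153 such sites in the list, and 0 were 2-fold lower (1.36%). Seh1cKO cells were at least 2-fold lower than control day 1 at 13, 9.77% against 10.6%, and 2-fold higher at 2, 1.5% against 2.47%. Those 2 were the Cacna1b start and a site in Kcnq5 (12, 14 and 19 fragments). The median log2 ratio of day 1 to progenitors was 0.38 at members and 0.43 over all sites, and that of Seh1cKO to day 1 −0.25 and −0.14.

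**Figure D5:**
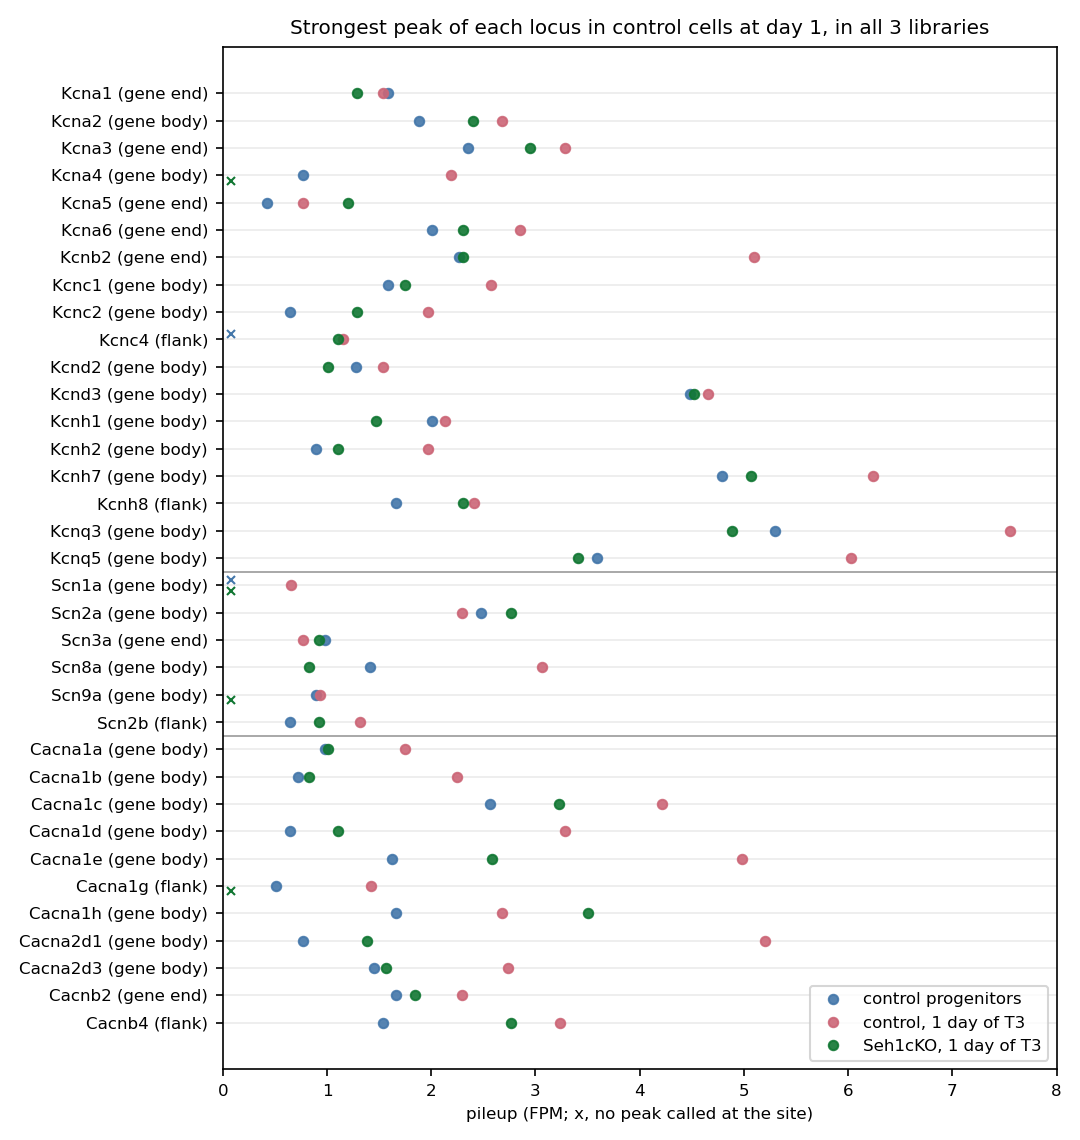
Height in FPM (x axis) of the strongest day 1 peak of each member locus and of the peaks that overlap it in the other libraries, with the place of the site beside each gene name and a cross where no peak was called. Cacna2d1, Cacna1d and Cacna1e show control cells at day 1 far above the others, while Kcnd3 lies at 4.49 to 4.65 in all 3.

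A wider list of 65 further channel genes gave a gene-end peak in 47, 44 and 33, or 72.3%, 67.7% and 50.8%. All genes gave 62.4%, 63.2% and 56.2%, so the wider list lay above that share in both control libraries and below it in Seh1cKO cells. Potassium pore genes gave 19, 17 and 12 of 22, and potassium auxiliary genes 5, 5 and 5 of 11. Sodium pore genes gave 3, 2 and 1 of 5 and calcium pore genes 2, 2 and 0 of 3. Calcium auxiliary genes gave 9, 10 and 8 of 12, HCN pacemaker genes 3, 3 and 2 of 4 and inward rectifier genes of glia 3, 3 and 3 of 5. Genes with a peak in control progenitors and not at day 1 included Kcna7, Kcnh6, Kcnv2, Kcne1, Scn4a and Cacng6. Those with the reverse were Kcna10, Kcnip2, Cacnb3 and Cacng1. As among the members, sodium channel pores were called less widely than potassium channel pores in each library, a description of counts from few genes.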

How the data were processed

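Peak tables of 3 ATAC-seq libraries, 1 per group, were analysed. The tools were Bowtie2, SAMtools and MACS2 and the build mm10, per the submitters' processing notes. The authors ran MACS 2.1.2_dev library by library on read pairs, per the file headers. It kept duplicates, had no control, used a q cutoff of 0.05 and joined regions up to 50 bp apart into peaks of at least 100 bp. The deposited values are the pileup signal at each summit in fragments, −log10 of the p-value and q-value, and the fold enrichment as a ratio to local background over 10000 bp. Kept duplicates can raise a pileup, and no table here measures by how much.

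Positions are 1-based. Gene positions and promoters came from RefSeq GRCm38.p6. Pileups were scaled to 1000000 of the fragments that each header gives (FPM). A peak was shared when another overlapped it by at least 1 bp. Shares have Clopper-Pearson intervals, heights exact Poisson intervals and ratios exact binomial intervals given their sum, at 95%. Without molecular identifiers, fragments need not be independent molecules, and intervals cover counting error only. Ratios use sites at which the peaks overlap. No test was made. Functions were tested on simulated data (Python 3.11.15, pandas 2.3.3, scipy 1.17.1).

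The members, gene lists and rules were chosen with earlier results of these data known. Members named in full were those whose gene-end call differed between libraries, the 2 strongest gene ends per ion at day 1, the largest gains and losses of locus peaks, the strongest shared and unshared peaks per ion and library, and the densest and sparsest loci. Further members are given by height. Sites of Cacna1d, Kcnq5 and other loci beyond this rule were chosen after their values were seen. Alternatives were other q cutoffs, lists of equal length, windows, flanks, overlap and scales. Other assays that the design text names were not analysed here. A result on the wider list is not reported here.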

Additional observations from a re-analysis of the deposited data

How the results depend on the processing

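No replicate could be left out, and no test exists whose side could change. No paired analysis was possible because each group holds 1 library. Of the summary values recomputed under the alternatives, 35 moved little, 15 moved and 1 reversed. Of the values by ion, of differences between libraries and of single members, 129 moved little, 94 moved and 10 reversed. With a −log10 q of at least 10, the members with a gene-end peak in Seh1cKO cells were 12 in place of 28. With at least 5, the difference in that count between control day 1 and progenitors was 1 in place of −4. Locus peaks per 100 kb were 2.08, 2.54 and 1.08 at a −log10 q of at least 5 and 1.11, 1.46 and 0.460 at 10, in the order progenitors, control day 1 and Seh1cKO.

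With lists of equal length the density was 2.16 in progenitors and 2.1 at day 1. The day 1 minus progenitor difference reversed to −0.0547 over all members, −0.100 for potassium, −0.0470 for calcium and 0.112 for sodium channel loci. The sodium difference was also 0.225 at a −log10 q of at least 5 and 0.130 in the gene body alone. Seh1cKO minus day 1 reversed to 0.0985 over all members, 0.561 for sodium and 0.141 for calcium. The share of day 1 locus peaks also in progenitors was 57.3%, 65.4% and 67.2% at a −log10 q of at least 5, of at least 10 and with equal lists. The share also in Seh1cKO cells was 40.9% at 5 and 66.7% with equal lists. These lists hold fewer and stronger peaks by construction. Relative to the median pileup of each list, the log2 ratio of Seh1cKO to day 1 was −0.84 in place of −0.09 for the median gene-end height and −0.24 in place of 0.51 for the median locus height. The cause was not tested.

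Calls at single gene ends also moved. The progenitor peaks of Scn1a and Cacna1h were lost at a −log10 q of at least 5, and at 2000 bp Cacna1h and Kcnh1 had a peak in every library. Annotated starts in place of gene ends, and loci without peaks at ends of other genes, were alternatives chosen after seeing the data. The 28 members with a promoter entry gave 27, 26 and 25 by starts and 25, 22 and 22 by gene ends.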
